A study of Mus musculus with 69 samples.

Results

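H3K27me3, the trimethylated form of lysine 27 on histone H3, was mapped by CUT&RUN in wild-type (WT) mouse embryonic stem (ES) cells and embryoid bodies, and the authors merged the peaks over 3 stages into 1 list of 11884 regions. The regions described here are the 3761 peaks of that list that are under 3000 bp wide and share no base with a merged WT Ring1B peak. They cover 7.97 Mb. The rest of the list is made up of 7600 broad peaks without Ring1B, which cover 72.4 Mb, and 523 peaks with Ring1B, which cover 13.8 Mb. The regions were chosen by width and by Ring1B overlap, measured values, so both are given as a description and nothing is drawn from them.

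H3K27me3 is written by Polycomb repressive complex 2 (PRC2), in which EZH2 is the catalytic subunit and SUZ12 and EED are core partners. Ring1B (the gene Rnf2) is the catalytic core of Polycomb repressive complex 1 (PRC1), which places ubiquitin on histone H2A and can bind H3K27me3 through its CBX subunits. In ES cells the widest and strongest Polycomb regions lie over CpG-rich promoters of developmental regulators, where both complexes are found, and they keep lineage genes low until differentiation. In CUT&RUN an antibody guides a nuclease to chromatin, and the DNA it releases is sequenced.

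The series asks how H3K27me3 acts in early differentiation and in the upkeep of differentiated identity, and has 69 samples. CJ7 mouse ES cells were grown on a PMEF-N feeder layer with LIF and 20% FBS and made into embryoid bodies by hanging drops. The groups used are EZH2-mutant and WT cells, as ES cells and at day 4 and day 8 of embryoid body culture, with 3 RNA-seq libraries each. The labels used here do not give the mutant allele, and the deposited columns carry 1 name, mu99, for all mutant RNA-seq libraries, without saying whether it is 1 clone. GSK343, an inhibitor of the EZH2 methyltransferase, was given at 4 µM starting 3 days before differentiation and kept on, and GSK343 and DMSO cultures have 2 RNA-seq libraries at each of the same stages. In a last arm, embryoid bodies were put back into ES medium for 5 days, and cells given DMSO during the embryoid body phase and GSK343 after it (DMSO_GSK343) were set against cells given DMSO in both (DMSO_DMSO), with 3 libraries each. Mutant CUT&RUN is used as 6 Suz12 peak lists, 2 per stage, beside 3 WT lists, 1 per stage, each called on 1 library. Nothing in the labels says that replicates came from separate cultures, so p-values measure the spread between these samples, which may be technical.

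Promoters at these peaks ranged from CpG islands to sequence with almost no CpG, and 5 are shown because the results below turn on their genes. Each is the RefSeq promoter (GRCm38.p6, the assembly called mm10), running from 250 bases before to 50 after the gene's start, 5′ to 3′ on the gene's strand, with each CG dinucleotide in capitals. Syk is at chr13:52583187-52583486 on the plus strand, with its start inside a member. Adamts1 at chr16:85803064-85803363, Calca at chr7:114636308-114636607 and Sall2 at chr14:52328621-52328920 are on the minus strand and also start inside one. Efnb2, at chr8:8661193-8661492 on the minus strand, starts 280 bp outside its member.
Syk: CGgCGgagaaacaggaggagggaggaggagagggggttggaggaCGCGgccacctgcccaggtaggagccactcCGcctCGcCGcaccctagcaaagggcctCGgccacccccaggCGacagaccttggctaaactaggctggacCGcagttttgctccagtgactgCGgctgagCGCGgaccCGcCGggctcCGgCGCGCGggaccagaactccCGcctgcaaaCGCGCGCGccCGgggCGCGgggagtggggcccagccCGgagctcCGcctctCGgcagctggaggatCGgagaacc
Adamts1: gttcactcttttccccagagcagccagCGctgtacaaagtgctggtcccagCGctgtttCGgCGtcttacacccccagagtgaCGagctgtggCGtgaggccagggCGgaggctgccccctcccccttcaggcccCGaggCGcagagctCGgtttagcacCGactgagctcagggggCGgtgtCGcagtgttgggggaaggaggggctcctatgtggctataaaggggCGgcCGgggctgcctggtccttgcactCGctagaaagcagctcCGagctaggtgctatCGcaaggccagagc
Calca: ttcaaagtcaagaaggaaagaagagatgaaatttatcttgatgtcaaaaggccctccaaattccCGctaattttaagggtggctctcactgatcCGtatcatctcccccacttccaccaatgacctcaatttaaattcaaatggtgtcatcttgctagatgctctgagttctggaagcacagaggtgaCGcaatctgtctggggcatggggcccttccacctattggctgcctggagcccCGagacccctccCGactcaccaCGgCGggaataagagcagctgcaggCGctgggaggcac
Sall2: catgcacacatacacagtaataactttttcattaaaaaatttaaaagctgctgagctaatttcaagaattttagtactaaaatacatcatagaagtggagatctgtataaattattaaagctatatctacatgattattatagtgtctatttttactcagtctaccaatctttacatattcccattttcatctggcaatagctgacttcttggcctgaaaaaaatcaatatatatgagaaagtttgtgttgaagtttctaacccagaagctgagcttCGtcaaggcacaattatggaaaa
Efnb2: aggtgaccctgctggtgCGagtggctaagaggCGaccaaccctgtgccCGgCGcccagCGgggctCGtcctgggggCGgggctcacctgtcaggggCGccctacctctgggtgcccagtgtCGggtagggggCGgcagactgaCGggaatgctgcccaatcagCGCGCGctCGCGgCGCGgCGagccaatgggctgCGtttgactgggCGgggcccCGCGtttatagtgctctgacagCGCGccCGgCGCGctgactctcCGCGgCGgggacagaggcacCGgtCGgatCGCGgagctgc
The number of CG dinucleotides was 31 in Syk, 18 in Adamts1, 8 in Calca, 1 in Sall2 and 35 in Efnb2. CG reads the same on both strands and its matches cannot overlap. At least 1 CG was found in 97.8% of the 597 promoters with a start inside or within 1 kb of a member, and in 94.6% of all 32851 promoters in the table. The median count was 12 per promoter at members, 16 at the broad peaks, 18 at the peaks with Ring1B and 7 over all promoters. Among the promoters at members, the 291 that start inside the peak had a median of 8 CG and 53.0% G+C, and the 306 that start outside it but within 1 kb had a median of 19 CG and 61.5% G+C. Starts inside members were thus poorer in CG than the starts beside them, which is a description with no test.

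Depth and labels were checked first. Reads recovered from the RPKM tables (M, mega) ran from 5.01 to 22.0 M in the DMSO and GSK343 libraries, from 7.17 to 28.5 M in the mutant and WT libraries, and from 2.27 to 8.34 M in the replated ones. Rn45s, a precursor of ribosomal RNA, made up 4.08 to 57.9% of these reads in mutant and WT libraries, 6.38 to 11.5% in GSK343 and DMSO libraries and 8.66 to 34.0% in the replated ones, which lowers the depth left for other genes. It was highest in WT day 4 library 2 at 57.9% and next in mutant day 8 library 2 at 38.0%. Ezh2 RNA stood at 23.6, 20.7 and 24.4 RPKM in mutant ES cells and 47.6, 62.5 and 37.2 RPKM in WT ES cells, a log2 difference of -1.04 (limma, adjusted p = 0.0372), so transcript remained in the mutant. Libraries of 1 group did not always match in markers: the summed RPKM of 5 markers of day 8 embryoid bodies (Afp, Hbb-bh1, Kdr, Myh6 and Tnnt2) was 226, 418 and 3.08 in WT day 8 libraries 1, 2 and 3, and that of 5 ES markers (Esrrb, Nanog, Pou5f1, Sox2 and Zfp42) was 46.2, 43.0 and 408. WT ES library 3 had a summed RPKM of 365 for 5 feeder markers (Col1a1, Col1a2, Lox, Postn and Thy1), against 30.4 and 24.4 in libraries 1 and 2. Counts of calls in the mutant ES cell, mutant day 8 and WT differentiation contrasts are given with and without the library concerned. The test of the mutant effect on day 8 against that in ES cells uses all libraries, as do the effect sizes of most single genes.

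The members were narrow throughout. The lowest width was 1501 bp, the lower quartile 1718 bp, the median 2064 bp and the upper quartile 2475 bp. The widest members spanned 2998, 2998 and 2999 bp, and the narrowest peaks left out for width spanned 3000, 3000 and 3003 bp. The members nearest to Ring1B lay 141, 468 and 864 bp from a Ring1B peak, and the median distance was 806 kb, against 805 kb for the broad peaks. With a limit of 2000 bp there would be 1712 members and with 4000 bp 5152.

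Most members lay away from gene starts. Of the 3685 members outside chromosome 18, which has no entries in the promoter table used, 13.1% had a start inside or within 1 kb, against 45.8% of the broad peaks and 77.5% of the peaks with Ring1B. A start lay inside the peak in 6.73% of members, 42.3% of broad peaks and 75.5% of peaks with Ring1B. The median distance to the nearest start was 14.7 kb for members, 2.62 kb for broad peaks and 0 kb for peaks with Ring1B. Wider peaks have more bases in which a start can fall, and distance was not adjusted for width. A protein-coding gene's span overlapped 40.1% of members, 67.7% of broad peaks and 92.7% of peaks with Ring1B. Members were not isolated from the rest of the mark: the nearest other H3K27me3 peak was a median of 15.01 kb away, and within 5 kb for 29.5% of them.

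**Figure D1:**
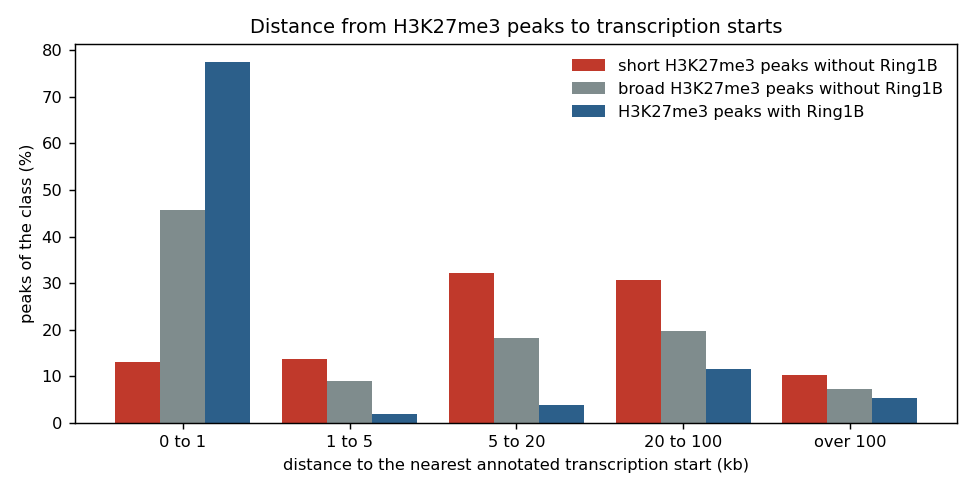
Share of peaks in each class (y axis, percent) by distance from the peak to the nearest RefSeq gene start (x axis, bins in kb). Of the short peaks without Ring1B 13.1% lie within 1 kb of a start, against 45.8% of broad peaks without Ring1B and 77.5% of peaks with Ring1B.

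Chromosomes 11 and 8 held more members per length than any other. Chromosome 11 had 480 members, 3.94 per Mb, and chromosome 8 had 332, 2.57 per Mb. The median autosome had 1.36 per Mb, the other autosomes lay between 0.839 and 1.68 per Mb, and the X chromosome had 0.293 per Mb. The same 2 chromosomes lay above every other autosome in the merged lists of all H3K27me3 peaks, Ring1B, Ezh2 and Suz12 and in the 9 Suz12 lists. Among the broad peaks without Ring1B, chromosome 11 did so at 6.27 per Mb, but chromosome 8 had 3.782 per Mb and chromosome 7 had 3.785. All merged H3K27me3 peaks came to 10.9 per Mb on chromosome 11, 6.79 on chromosome 8 and 4.37 on the median autosome, and merged Ring1B peaks to 1.59, 0.781 and 0.237. In the 9 Suz12 lists, chromosome 11 held 2.16 to 17.9 peaks per Mb and chromosome 8 held 1.61 to 13.1, against autosome medians of 0.232 to 3.09. The 3 genes with the most members within 1 kb of their span were long genes on these chromosomes. Asic2, a proton-gated ion channel subunit on chromosome 11, had 9 over 1088 kb. Tenm2, a teneurin cell adhesion protein on chromosome 11, had 8 over 1230.4 kb, and Galntl6, a member of the polypeptide N-acetylgalactosaminyltransferase family on chromosome 8, had 6 over 1140.04 kb. Dock2, a guanine nucleotide exchange factor for Rac on chromosome 11, had 5, as did Hydin on chromosome 8 and Zfp536 on chromosome 7.

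**Figure D2:**
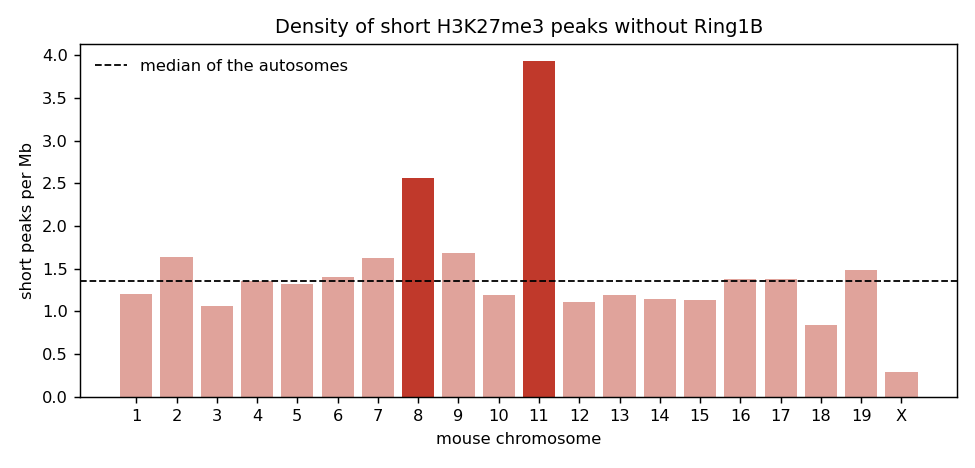
Short H3K27me3 peaks without Ring1B per Mb (y axis) on each mouse chromosome (x axis), with the median of the autosomes as a dashed line. Chromosomes 11 and 8 stand at 3.94 and 2.57 per Mb, above the other autosomes at 0.839 to 1.68, and the X chromosome is lowest at 0.293.

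Suz12, which the rule did not use, overlapped few members. Only 2 members touched a merged WT Ezh2 peak, chr11:98960414-98962915 in the span of the retinoic acid receptor gene Rara and chr11:100395971-100397475 at Jup, the gene of the junction protein plakoglobin. A single member touched a merged WT Suz12 peak. These merged lists are short, with 450 Ezh2 and 491 Suz12 peaks, and the single-library lists are longer, with 1000 to 8810 peaks each. Most Suz12 peaks of each list lay outside the H3K27me3 peaks. The share inside any H3K27me3 peak ran from 3.73% in the WT ES list to 40.5% in the WT day 8 list. The share inside a member ran from 0.439% to 1.61%. The overlap that position alone would give was not measured, so an overlap is not read as Suz12 binding at a member. In ES cells, Suz12 overlapped 1.25% and 0.851% of members in mutant libraries 1 and 2 and 1.01% in the WT library. On day 4 it overlapped 2.05% and 2.53% in the mutant libraries and 0.239% in the WT library, whose list is the shortest. On day 8 it overlapped 0.824% and 2.15% in the mutant libraries and 2.79% in the WT library (95% Wilson interval 2.31 to 3.37%, which covers the counting of regions only). Both mutant lists lay above the WT list on day 4 and below it on day 8, list lengths differed as well, and with 1 WT list per stage no test was made.

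The peaks with Ring1B were overlapped far more often in every list. On day 8, the share was 20.7% and 74.6% in the mutant libraries and 80.5% in the WT library, and that of the broad peaks was 2.91%, 12.9% and 19.3%. Over the 9 lists members averaged 1.52% ± 0.881, broad peaks 6.43% ± 6.14 and peaks with Ring1B 37.0% ± 26.2 (SD, n = 9). Members were lower than the broad peaks in 9 of 9 lists, with a difference of -4.91 percentage points, and lower than the peaks with Ring1B in 9 of 9, with a difference of -35.5 points (exact two-sided sign-flip permutation tests, n = 9, p = 0.00391 each and 0.00391 adjusted over the 2 tests, the smallest that 512 arrangements can give). Overlap grows with width. Counted over the central 1 kb of each peak, the difference from the broad peaks was -0.81 points, lower in 3 of 9 lists (exact permutation p = 0.469, n = 9), so the difference from the broad peaks was not detected at equal width. The difference from the peaks with Ring1B held there, at 1.06% for members and 12.9% (lower in 8 of 9 lists, exact permutation p = 0.00781, n = 9, 0.0156 adjusted). Without chromosomes 8 and 11 members averaged 0.761%, broad peaks 4.67% and peaks with Ring1B 35.4%.

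**Figure D3:**
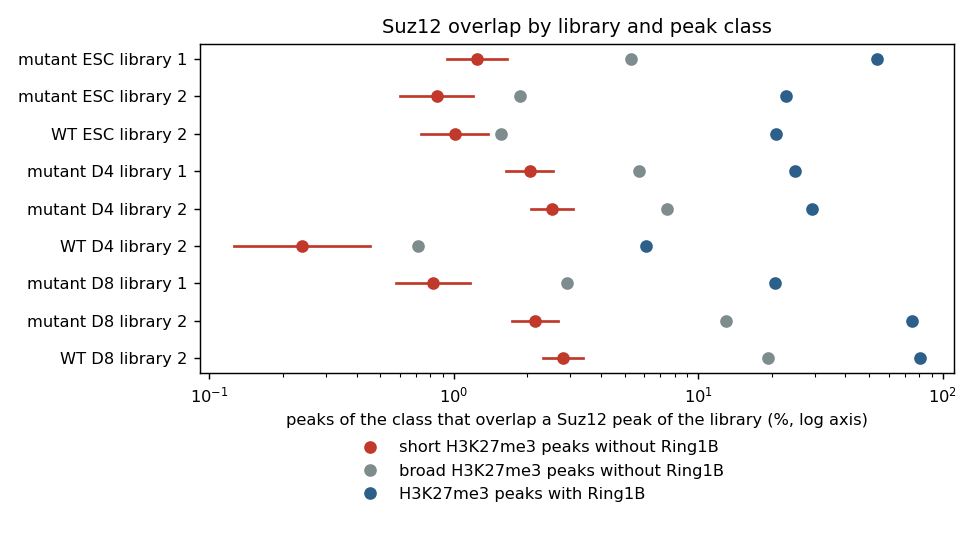
Percent of peaks overlapped by a Suz12 peak (x axis, log scale) in each of 9 single-library Suz12 lists (y axis), 1 point per H3K27me3 peak class, with 95% Wilson intervals as red lines for the short peaks without Ring1B. Short peaks without Ring1B lie lowest in every list, between 0.239% and 2.79%. Shares are over whole peaks, whose widths differ by class. Over the central 1 kb, short peaks were lower than broad peaks in 3 of 9 lists.

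Overlap with Suz12 rarely recurred at the same member. At least 1 list touched 445 members (11.8%), against 35.1% of broad peaks and 88.9% of peaks with Ring1B. At least 2 lists touched 59 members (1.57%), against 14.1% and 78.4%, and 11 members were touched in 3 lists and none in more. Wider peaks have more bases in which an overlap can fall, and these shares were not adjusted for width. Of the 445 members 57.5% lay on chromosomes 8 and 11, as did 81.4% of the 59 and 21.6% of all members. Gene starts lay at 3 of the 11: Sap30l, a component of the Sin3 histone deacetylase complex, with 2010001A14Rik beside chr11:57802169-57804005, LOC115490339 on chromosome 6, and Efnb2, the membrane ligand ephrin-B2, beside chr8:8658911-8660961. The Efnb2 member was touched in the WT day 4, mutant day 8 library 2 and WT day 8 lists. Leaving out predicted genes, members at 2 lists lay at Olfr222, Zkscan6, Wdr81, Vezf1, Nt5c, Evl, Syk and AW046200.

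The genes at members were taken as those with a RefSeq start inside or within 1 kb of one. There were 531, of which 376 (70.8%) were protein-coding and 155 (29.2%) long noncoding. The start lay inside the peak for 261. The mutant and WT table held 280 of them and tested 263 above its low-value filter, the DMSO and GSK343 table held 275 and tested 260, and the replating table held 278 and tested 268. A gene that passed the filter only in the group where it is high had to differ, so counts are over the genes tested. In the authors' deposited table, 276 of the 278 genes with a call (99.3%, exact 95% interval 97.4 to 99.9%) were marked as PRC2 targets, against 99.6% at broad peaks, 100% at peaks with Ring1B and 32.2% of all genes. The sources used here do not give how the authors made that call, so a link to these same peaks cannot be told apart from an independent one.

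Over 12 gene lists drawn up by function, 7 of 182 genes with a RefSeq start (3.85%) lay at a member, against 1.96% of all 27025 genes of the promoter table. With a share this low, single lists are given as counts alone and nothing is drawn from a 0. The list of Polycomb-repressed developmental transcription factors had 0 of its 44 genes with a start at a member, while 39 lay at peaks with Ring1B and 5 at broad peaks. The same count of 0 held for PRC1 subunits (of 14), H3K27 demethylases (of 2), naive pluripotency genes (of 12), cardiac muscle genes (of 12), blood and endothelial genes (of 8), endoderm genes (of 10) and feeder fibroblast and mesenchyme genes (of 9). PRC2 subunits had 1 of 13, the accessory factor Lcor. Germline genes had 2 of 19, Tdrd1, a tudor protein of the piRNA pathway, and Slc25a31, the ADP/ATP carrier of male germ cells. Imprinted genes had 2 of 23, Nnat and Gnas, and neural adhesion genes and receptors 2 of 19, Cdh12 and Ctnna2.

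Genes at members were expressed below the typical gene and above the genes of the other peaks. In WT ES cells the median per library was 2.85 to 3.31 RPKM at members, 1.32 to 1.39 at broad peaks, 0.773 to 0.953 at peaks with Ring1B and 6.37 to 6.64 over all genes with a start. The genes with a start inside the member had medians of 1.47 to 2.25 RPKM, and those with a start outside it but within 1 kb 4.79 to 4.89 RPKM. On day 8 of WT culture the median at members was 3.64 to 4.95 RPKM, against 6.80 to 7.23 over all genes with a start. In bulk samples, fewer cells of a type and less RNA per cell cannot be told apart.

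In EZH2-mutant cells almost none of these genes passed the test for a difference from WT. Calls were made with limma on log2(RPKM + 1) at an adjusted p of 0.05. In ES cells 0 of 263 genes at members passed, and 22 had an unadjusted p under 0.05, while 0.0917% of all tested genes passed and 6.04% had an unadjusted p under 0.05. The nearest was Gstm5, a glutathione S-transferase, with a log2 difference of -1.08 (limma adjusted p = 0.0668). Leaving out WT library 1 gave 1 call at members and 12 over all 14339 tested genes. Without WT library 3, 0 of 264 passed and 37 had an unadjusted p under 0.05. Over all 14325 genes of that fit 9 passed and 1545 had an unadjusted p under 0.05. On day 4 0 of 263 passed with 18 at an unadjusted p under 0.05, while 0.0494% of all tested genes passed and 4.66% had an unadjusted p under 0.05. Leaving out WT day 4 library 3 gave 2 calls at members and 98 over all 14346 tested genes.

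On day 8 of mutant culture 1 gene at a member rose and 2 fell, of 263, while 1.3% of all tested genes rose and 0.212% fell. Kif5c, a kinesin heavy chain of neurons, had 6.29, 6.02 and 6.43 RPKM in mutant day 8 libraries, against 12.7, 11.8 and 16.1 RPKM in WT day 8 libraries. Every mutant library lay below every WT one, which the naming rule requires. The log2 difference was -0.99 (SE 0.16, limma adjusted p = 0.00849), and the call held when any 1 library was left out. Stxbp6, a SNARE-binding protein also called amisyn, had 2.26, 1.02 and 1.57 RPKM in mutant libraries and 4.26, 4.29 and 3.57 RPKM in WT libraries (log2 -0.97, SE 0.21, adjusted p = 0.0354). The call for Stxbp6 was lost without WT library 1 or 2 or mutant library 2 or 3. Dmgdh, the mitochondrial dimethylglycine dehydrogenase, had 1.39, 0.772 and 0.699 RPKM in mutant libraries and 0.118, 0.161 and 0.0401 RPKM in WT libraries (log2 0.80, SE 0.18, adjusted p = 0.0413), and kept its call in 1 of 6 such fits. A fit to the mutant and WT day 8 libraries alone called 0 of 252 genes at members, with limma adjusted p = 0.177 for Kif5c. That fit called 3 of all 13429 tested genes, so its 0 was not particular to members.

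The day 8 count depended on which libraries were used. Without WT day 8 library 3, in which ES markers are high, 13 genes at members rose and 10 fell, of 264. In that fit 838 of all 14338 tested genes rose and 508 fell, so the larger count was not limited to members. The count was 1 without WT library 1, WT library 2 or mutant library 3, and 11 without mutant library 1. Over all genes these fits called 16, 21, 45 and 533, in the same order. The summed ES markers ran at 239, 710 and 487 RPKM in mutant day 8 libraries and 46.2, 43.0 and 408 RPKM in WT day 8 libraries. Their part in the result was not tested. The mutant effect on day 8 did not differ from that in ES cells at any gene at a member (0 of 263 called, 14 at an unadjusted p under 0.05, while 0.00705% of all genes passed and 5.83% had an unadjusted p under 0.05).

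In the main fit, which does not pair replicates, the inhibitor gave 0 calls at members until day 8. A replicate block and a fit to the day 4 groups alone each called some genes at members on day 4, as counted further below. In GSK343 ES cells 0 of 260 passed against DMSO, with 14 at an unadjusted p under 0.05, while 0% of all genes passed and 4.77% had an unadjusted p under 0.05. On day 4 0 of 260 passed with 31 at an unadjusted p under 0.05, while 0.628% of all genes passed and 10.3% had an unadjusted p under 0.05. The nearest on day 4 were Gdpd1, a glycerophosphodiester phosphodiesterase (log2 -0.76, adjusted p = 0.0748), Jup (log2 0.56, adjusted p = 0.0789) and Kcnk5, a pore-domain potassium channel (log2 0.97, adjusted p = 0.0812).

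On day 8 of GSK343 culture 41 of the 260 genes at members rose (15.8%) and 63 fell (24.2%), while 15.6% of all tested genes rose and 16% fell. The share that rose was thus near that of all genes and the share that fell was above it. The median log2 difference was -0.15 at members and 0.00 over all genes. At broad peaks 18.4% of genes rose and 26.7% fell, and at peaks with Ring1B 15.02% rose and 42.3% fell. The 41 rises had log2 differences of 0.43 to 2.61 with a median of 0.90, and the 63 falls ran from -2.87 to -0.36 with a median of -0.95. A fit to the GSK343 and DMSO day 8 libraries alone called 22 up and 39 down, and leaving out DMSO library 2 left 59 calls.

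The genes that rose most under GSK343 on day 8 had higher levels in ES cells than in DMSO day 8 embryoid bodies. Calca, which encodes the peptide hormones calcitonin and CGRP, had 30.4 and 37.2 RPKM in GSK343 day 8 libraries, against 3.50 and 6.18 RPKM in DMSO day 8 libraries. Both GSK343 values lay above the ES cell levels of 22.8 and 20.1 RPKM with GSK343 and 28.5 and 24.96 RPKM with DMSO, and the day 8 difference was 2.61 (log2, SE 0.20, adjusted p = 1.06e-05). Kcnk5, whose start is 148 bp outside a member, had 16.5 and 27.04 RPKM in GSK343 day 8 libraries and 3.09 and 2.73 RPKM in DMSO ones (log2 2.502, SE 0.21, adjusted p = 1.81e-05), and in ES cells 22.4 and 18.7 RPKM with GSK343 and 23.8 and 19.8 RPKM with DMSO. Syk, a cytoplasmic tyrosine kinase of immune receptors with the CpG-rich promoter printed above, had 9.17 and 8.52 RPKM in GSK343 day 8 libraries and 1.005 and 1.34 RPKM in DMSO ones (log2 2.18, SE 0.16, adjusted p = 6.37e-06). In ES cells Syk stood at 4.50 and 5.61 RPKM with GSK343 and 4.44 and 5.07 RPKM with DMSO, below the GSK343 day 8 values. Smpdl3b, a membrane-bound phosphodiesterase, had 6.35 and 9.69 RPKM in GSK343 day 8 libraries and 1.20 and 1.10 RPKM in DMSO ones (log2 2.04, SE 0.20, adjusted p = 4.86e-05), and 5.29 to 7.47 RPKM in the 4 ES cell libraries. Slc15a1, the oligopeptide transporter PEPT1, had 1.91 and 6.78 RPKM in GSK343 day 8 libraries and 0.234 and 0.164 RPKM in DMSO ones (log2 1.99, SE 0.36, adjusted p = 0.00219). Its GSK343 day 8 values stayed below the 12.9 to 13.9 RPKM of the 4 ES cell libraries. Its difference was 2.699 without GSK343 library 1 and 1.28 without GSK343 library 2. All 5 kept their call when any 1 of the 4 day 8 libraries was left out.

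The genes that fell most were low in ES cells and high in DMSO embryoid bodies. Adamts1, a secreted protease of the extracellular matrix, had 1.20 and 1.72 RPKM in GSK343 day 8 libraries and 12.2 and 23.1 RPKM in DMSO ones (log2 -2.87, SE 0.33, adjusted p = 0.000151). Its ES cell values were 1.74 and 3.31 RPKM with GSK343 and 1.20 and 2.59 RPKM with DMSO, all below the DMSO day 8 libraries. Rgs4, which speeds the switching off of G proteins, had 0.263 and 0.110 RPKM in GSK343 day 8 libraries and 7.51 and 5.14 RPKM in DMSO ones (log2 -2.61, SE 0.19, adjusted p = 7.63e-06), and 0.231 to 0.779 RPKM in the 4 ES cell libraries. Ackr3, an atypical receptor that takes up the chemokine CXCL12, had 0.706 and 1.16 RPKM in GSK343 day 8 libraries and 5.43 and 13.0 RPKM in DMSO ones (log2 -2.30, SE 0.29, adjusted p = 0.000258). Ackr3 stayed within 0.951 to 1.38 RPKM in all 4 ES cell libraries of the experiment. Ppp1r3c, which brings protein phosphatase 1 to glycogen, had 1.63 and 3.52 RPKM in GSK343 day 8 libraries and 15.1 and 15.6 RPKM in DMSO ones (log2 -2.24, SE 0.21, adjusted p = 4.23e-05). Inka1, an inhibitor of the kinase PAK4 whose start is 130 bp outside a member, had 1.80 and 2.29 RPKM in GSK343 day 8 libraries and 10.6 and 12.7 RPKM in DMSO ones (log2 -2.05, SE 0.16, adjusted p = 9.34e-06). In the 4 ES cell libraries Ppp1r3c lay between 1.07 and 1.28 RPKM and Inka1 between 1.78 and 2.08 RPKM. These 5 also kept their call in each of the 4 fits that left out a library.

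**Figure D4:**
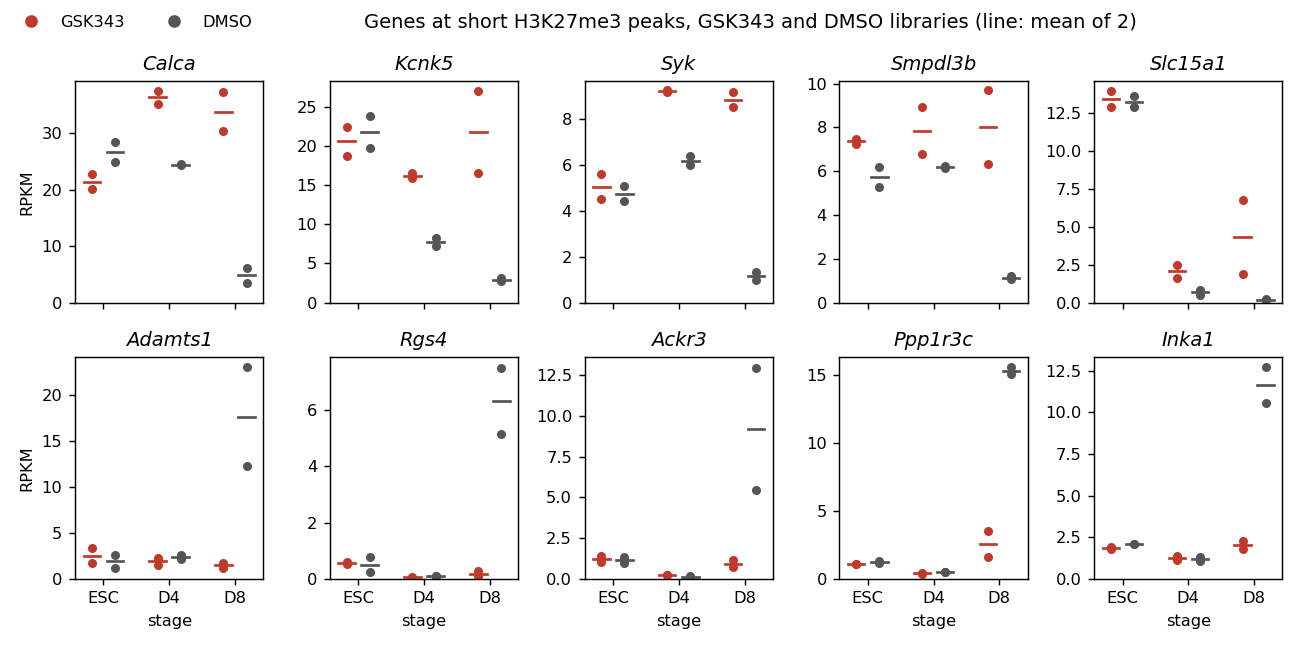
RPKM (y axis, linear, own scale per gene) by stage (x axis) of the 5 genes at short peaks that rose most and the 5 that fell most on day 8 of GSK343 culture, 1 point per library with the mean of each pair as a line, GSK343 in red left of DMSO in grey. The 10 genes were picked from those whose 2 day 8 groups do not overlap, so the gap between the groups follows from that choice.

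Of the germline list, the 2 genes that lie at members rose on day 8 of GSK343 culture, while 15.6% of all tested genes rose. Their values were low. Tdrd1 had 1.87 and 0.980 RPKM in GSK343 day 8 libraries and 0.280 and 0.545 RPKM in DMSO ones (log2 0.76, SE 0.20, adjusted p = 0.0164). Slc25a31 had 0.819 and 1.07 RPKM in GSK343 day 8 libraries and 0.202 and 0.0541 RPKM in DMSO ones (log2 0.79, SE 0.20, adjusted p = 0.0144). Each kept its call in 2 of 4 fits that left out a library. Evl, an actin regulator of the Ena/VASP family at a member with 2 Suz12 lists, fell (log2 -0.74, adjusted p = 0.00528). Efnb2 did not pass (log2 -0.47, adjusted p = 0.257), nor did Vezf1, a zinc finger factor of blood vessel development (log2 -0.52, adjusted p = 0.0856).

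The cultures themselves differed in markers on day 8. The 5 ES markers summed to 743 and 1009.6 RPKM in GSK343 day 8 libraries and 96.2 and 90.2 RPKM in DMSO ones, and 5 of 5 rose. The 5 markers of day 8 embryoid bodies summed to 1.68 and 1.34 RPKM in GSK343 libraries and 207 and 561 RPKM in DMSO ones, and 5 of 5 fell. The 5 feeder markers summed to 3.85 and 13.1 RPKM in GSK343 libraries and 40.6 and 116 RPKM in DMSO ones, with 2 of 5 called lower, and no marker of the 3 lists was at 0 in these libraries. On day 4 the feeder markers had summed to 2.89 and 3.25 RPKM with GSK343 and 6.13 and 6.54 RPKM with DMSO. Whether their day 8 RNA came from feeders or from embryoid body cells was not tested. The part of these cell states in the changes at members was not tested. The GSK343 effect on day 8 differed from that in ES cells at 66 of the 260 genes, 21 with a higher and 45 with a lower effect on day 8, while 8.94% of all genes were higher and 11% lower in the same test.

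WT differentiation was measured in cultures of their own. Between WT day 8 and WT ES cells 57 of 263 genes at members rose (21.7%) and 24 fell (9.13%), while 14.7% of all tested genes rose and 14.4% fell. The median log2 difference was 0.20 at members and 0.01 over all genes. At broad peaks 20.1% rose and 15.2% fell, and at peaks with Ring1B 29.2% rose and 9.86% fell. The rises had a median of 1.08 on the log2 scale and the falls of -0.74. Leaving out WT day 8 library 3 gave 76 rises and 27 falls of 264, and leaving out WT ES library 3 gave 90 calls. The count was 46 without WT ES library 1, 36 without WT day 8 library 1 and 40 without WT day 8 library 2, and a fit to these 2 groups alone called 34 up and 5 down. Shares over all genes are not set beside these alternative counts, so nothing about members is drawn from them.

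Ppp1r3c had the largest rise by the naming rule. It stood at 16.6, 13.6 and 7.27 RPKM in WT day 8 libraries, against 0.486, 0.928 and 0.182 RPKM in WT ES libraries (log2 3.10, SE 0.33, adjusted p = 8.8e-05). Sall2, a zinc finger transcription factor whose printed promoter has a single CG, had 8.75, 10.6 and 22.8 RPKM in WT day 8 libraries and 1.40, 0.717 and 2.44 RPKM in WT ES libraries (log2 2.52, SE 0.37, adjusted p = 0.000469). Its highest value was in day 8 library 3, the library with high ES markers. Car14, a membrane carbonic anhydrase, had 6.65, 5.99 and 14.2 RPKM in WT day 8 libraries and 1.10, 0.533 and 0.479 RPKM in WT ES libraries (log2 2.47, SE 0.37, adjusted p = 0.000497). Klhl23, a kelch-repeat protein, had 9.90, 9.49 and 9.72 RPKM in WT day 8 libraries and 1.78, 0.720 and 2.25 RPKM in WT ES libraries (log2 2.10, SE 0.25, adjusted p = 0.000158). Gnas, the imprinted locus of the stimulatory G protein alpha subunit, had 126, 111 and 43.3 RPKM in WT day 8 libraries and 16.9, 14.8 and 22.0 RPKM in WT ES libraries (log2 2.20, SE 0.47, adjusted p = 0.00376). Under GSK343 on day 8 Gnas had 48.3 and 35.9 RPKM, against 109.9 and 125 RPKM with DMSO (log2 -1.47, SE 0.18, adjusted p = 0.000179). Gnas has several starts and an antisense partner and strand use in counting is not given, so its values are uncertain.

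Of the 15 genes at members touched in at least 2 Suz12 lists, 9 were tested in WT differentiation. Among these 9, 3 rose and 1 fell, while 14.7% of all tested genes rose and 14.4% fell. With 9 genes nothing is drawn from these counts. Efnb2 had 27.5, 30.8 and 10.6 RPKM in WT day 8 libraries and 3.61, 3.43 and 6.32 RPKM in WT ES libraries (log2 2.04, SE 0.50, adjusted p = 0.00782). Vezf1 had 26.6, 19.6 and 19.4 RPKM in WT day 8 libraries and 6.84, 10.8 and 8.17 RPKM in WT ES libraries (log2 1.26, SE 0.17, adjusted p = 0.000314). Neither gene's groups overlapped. The third, 2010001A14Rik, which shares its member with Sap30l, had 5.35, 2.67 and 2.29 RPKM in WT day 8 libraries and 0.816, 1.63 and 0.984 RPKM in WT ES libraries (log2 1.01, SE 0.26, adjusted p = 0.0108, kept in 4 of 6 fits without 1 library). Syk fell (log2 -1.18, adjusted p = 0.0402, kept in 2 of 6 fits without 1 library). Sap30l, Zkscan6, Wdr81, Nt5c and Evl did not pass, and Olfr222 and AW046200 were not in the tables. The imprinted gene Nnat, a proteolipid that lies inside Blcap, had 93.8, 91.7 and 39.2 RPKM in WT day 8 libraries and 21.3, 14.3 and 26.4 RPKM in WT ES libraries (log2 1.75, SE 0.47, adjusted p = 0.0129), and reads of the gene around it cannot be told apart from its own. Of the remaining genes from the functional lists, Lcor passed in no comparison, Ctnna2 was above the filter in the replating table alone and did not pass there, and Cdh12 was not in the tables.

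The largest falls in WT differentiation held 2 of the 5 genes that rose most under GSK343. Kcnk5 had 1.61, 2.03 and 7.67 RPKM in WT day 8 libraries and 26.6, 20.2 and 15.1 RPKM in WT ES libraries (log2 -2.37, SE 0.52, adjusted p = 0.00472). Slc15a1 had 0.0934, 0.153 and 2.03 RPKM in WT day 8 libraries and 9.37, 10.1 and 2.41 RPKM in WT ES libraries (log2 -2.23, SE 0.60, adjusted p = 0.0130), and kept its call in 2 of 6 fits without 1 library. Both had their highest day 8 value in library 3. E2f2, a cell cycle transcription factor, had 0.747, 0.790 and 0.684 RPKM in WT day 8 libraries and 6.66, 4.45 and 3.46 RPKM in WT ES libraries (log2 -1.71, SE 0.25, adjusted p = 0.000393). Mreg, melanoregulin, had 2.83, 3.801 and 10.5 RPKM in WT day 8 libraries and 20.8, 34.9 and 11.4 RPKM in WT ES libraries (log2 -1.84, SE 0.51, adjusted p = 0.0155), and kept its call in 3 of 6 such fits. S100a6, a calcium-binding protein, had 20.0, 18.3 and 14.2 RPKM in WT day 8 libraries and 110.3, 73.8 and 548 RPKM in WT ES libraries (log2 -3.18, SE 0.63, adjusted p = 0.00261). Its highest value was in the ES library with 365 RPKM of feeder markers, and without that library the difference was -2.31 (adjusted p = 0.00564). The part of feeder cells was not tested.

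The GSK343 and WT differentiation contrasts share no libraries, and their calls at members ran in opposite directions. Of the 258 genes tested in both, 27 fell under GSK343 on day 8 and rose in WT differentiation, which is 43.5% of 62 GSK343 falls and 47.4% of 57 WT rises. A further 13 rose under GSK343 and fell in WT differentiation, 31.7% of 41 GSK343 rises and 56.5% of 23 WT falls. Only 1 gene rose in both and 0 fell in both. Over all 13792 genes tested in both, the share of GSK343 falls that rose in WT differentiation was 51.8% and the share of GSK343 rises that fell was 52.6%, so this opposition was not limited to genes at members.

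**Figure D5:**
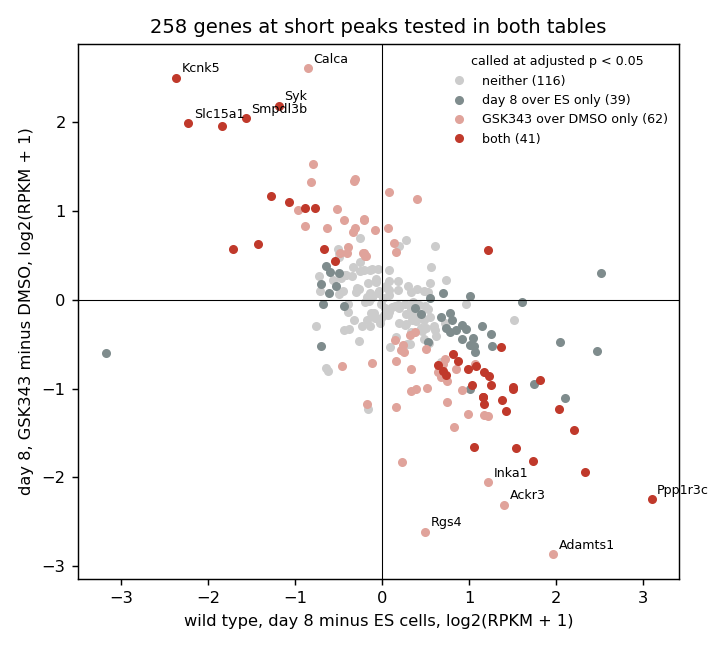
Log2 difference of GSK343 against DMSO on day 8 (y axis) and of WT day 8 against WT ES cells (x axis) for the 258 genes at short peaks tested in both, each point 1 gene, coloured by which contrast called it. Of the 41 genes called in both, 27 lie with a WT rise and a GSK343 fall and 13 with a WT fall and a GSK343 rise.

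Inhibitor given only after replating left genes at members without a call. In DMSO_GSK343 against DMSO_DMSO cells 0 of 268 passed by limma, with 3 at an unadjusted p under 0.05, while 0% of all genes passed and 2.28% had an unadjusted p under 0.05. The median log2 difference was -0.15 at members and -0.23 over all genes. Inka1 was 1 of the 3, at 4.67 ± 1.601 RPKM in DMSO_GSK343 libraries and 1.92 ± 1.27 RPKM in DMSO_DMSO libraries (SD, n = 3 each), with a limma adjusted p of 0.885. The summed ES markers were 5.39, 6.66 and 8.34 RPKM in DMSO_GSK343 libraries and 328, 6.47 and 15.5 RPKM in DMSO_DMSO libraries, so DMSO_DMSO library 1 stood apart, and the count stayed at 0 without it. The 6 libraries held 2.52 to 8.34 M reads, and the part of depth and of the spread between libraries in the absence of calls was not tested.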

How the data were processed

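RNA-seq and CUT&RUN samples were grouped from GEO's labels. The deposited expression values are RPKM, per the file headers, and the submitters' processing notes name STAR 2.5.3, featureCounts 1.6.1, edgeR, HOMER 4.10.3, Bowtie2 2.3.4.3 and mm10, with no role given. The sources used here do not name the annotation or say whether strand was used. Peaks were used as the authors' deposited start and end positions, and CUT&RUN depth is unknown. In the RPKM tables, 100% of low values were within 0.02 of a whole read, which gave the depths. The deposited table's PRC2 target call was used as given, and 0 per-sample columns were left aside. Library 3 of GSK343_GSK343 was not analysed here.

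Log2(RPKM + 1) was fitted with limma 3.58.1 in R 4.3.3, with 1 trended fit per table over all its groups and genes at 0.5 RPKM or more in as many libraries as the smallest group, and p-values were adjusted by the Benjamini-Hochberg method over all tested genes. Fold changes on this scale understate the change of low genes. The RPKM tables were normalized separately, so tests stay within a table. The scripts were tested on simulated data.

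An overlap needs 1 bp. Suz12 shares were compared over 9 lists by exact sign flips. Named genes are the 5 largest rises and falls per comparison whose groups did not overlap and whose higher mean reached 1 RPKM, predicted and histone genes left out, plus genes at members with the most Suz12 lists or the most members in their span, and members of 12 gene lists. Gstm5, Jup, Gdpd1 and the other near misses were named after their values were seen. The members, lists and rules were chosen with earlier results of these data known.

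Replicate numbers were not used as pairs in any main fit. Every same-numbered pair of deviations correlated above 0.1 in the mutant and WT day 4 libraries (0.637, 0.290 and 0.806), where the blocked fit also called 0 genes at members. The same held for GSK343 and DMSO libraries, at 0.666 in ES cells, 0.625 on day 4 and 0.424 on day 8. With 2 libraries per group, both pairs give 1 and the same value. There the blocked fit called some genes at members on day 4, as counted below.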

Additional observations from a re-analysis of the deposited data

Results flagged for a closer look

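The effect of GSK343 differed between day 8 and ES cells at 66 of 260 tested genes at short peaks (25.4%). This was a test of the difference itself (limma, adjusted p under 0.05 over all genes). Over all 14016 tested genes 2794 (19.9%) passed it, so such differences were not limited to short peaks. Among the named genes, the difference of the 2 effects (day 8 minus ES cells, log2) was 2.91 for Calca, 2.58 for Kcnk5, 2.11 for Syk, 1.97 for Slc15a1 and 1.73 for Smpdl3b, each with a higher effect on day 8. It was -3.16 for Adamts1, -2.69 for Rgs4, -2.35 for Ackr3, -2.16 for Ppp1r3c and -1.94 for Inka1, each with a lower effect on day 8. These 10 genes were named for their day 8 effects and none passed in ES cells by limma, so the sign and rough size of these differences follow from that choice. Marker sums of the day 8 cultures moved with these differences and their part was not tested.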

How the results depend on the processing

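The 2000 bp limit for genes, gene spans, genes at no other H3K27me3 peak and the removal of chromosomes 8 and 11 were chosen after seeing the data. With all libraries kept, 61 alternative values stayed within 1.5 times or on their side of the threshold, 18 counts moved further and 1 test lost its call. A count of 0 that stayed at 0 was scored as unchanged, and direction was not scored for counts. The mean Suz12 differences kept their sign. That between members and broad peaks was -0.81 points over the central 1 kb, with members lower in 3 of 9 lists (exact permutation p = 0.469, n = 9). With gene spans in place of starts, calls at members numbered 1 in mutant ES cells, 12 on mutant day 8, 2 on GSK343 day 4, 303 on GSK343 day 8 and 235 in WT day 8 against ES cells, over a larger set of genes. With starts inside the peak alone there were 1 on mutant day 8, 42 on GSK343 day 8 and 35 in WT differentiation, and with members under 2000 bp 1, 31 and 26, both over fewer genes. By gene span 727 genes were tested in the mutant and WT libraries and 709 in the DMSO and GSK343 libraries. Of all tested genes 1.51% passed on mutant day 8, 31.6% on GSK343 day 8 and 29.1% in WT differentiation. Fits to the 2 groups of a contrast gave 0 on mutant day 8, where 3 of all 13429 tested genes passed. They gave 2 on GSK343 day 4, 61 on GSK343 day 8 and 39 in WT differentiation, and the cause was not tested. Stxbp6 (limma adjusted p = 0.235) and Mreg (0.0556) lost their calls in them. The replicate block gave 1 in mutant ES cells, 13 on mutant day 8 and 7 on GSK343 day 4. In these contrasts not every same-numbered pair correlated above 0.1 or only 2 pairs exist. Over all 14180 tested genes the block called 41 in mutant ES cells and 616 on mutant day 8. It moved no other count by over 1.5 times. Leaving out 1 library gave 0 to 1 calls in mutant ES cells, 0 to 2 on mutant day 4, 1 to 23 on mutant day 8, 59 to 92 on GSK343 day 8, 36 to 103 in WT differentiation and 0 in the 3 other contrasts. The Suz12 differences then ran from -5.46 to -3.45 points against broad peaks and from -39.2 to -30.2 against peaks with Ring1B. The replated contrast rests on 2.52 to 8.34 M reads a library. The other counts given here for 2-group, blocked and leave-one-out fits stand without a share over all genes. Nothing about members is drawn from them.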

Other observations

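The replated cells that had GSK343 during the embryoid body phase entered no comparison here, and the named genes at short peaks are given in them as values. Kcnk5 had 5.51 and 10.5 RPKM in cells kept on GSK343 after replating and 9.15, 8.11 and 6.16 RPKM in cells moved to DMSO (GSK343_DMSO), against 3.36, 0.214 and 0.354 RPKM in DMSO_DMSO cells. The summed ES markers were 225 and 689.6 RPKM in cells kept on GSK343 and 507, 752 and 439 RPKM in GSK343_DMSO cells. They were 328, 6.47 and 15.5 RPKM in DMSO_DMSO cells. The DMSO_DMSO library with 328 RPKM of ES markers had less Kcnk5 than the library with 225 RPKM kept on GSK343. Kcnk5 thus did not follow the ES markers in every library, and their part was not tested. Adamts1 had 46.7 and 19.8 RPKM in cells kept on GSK343 and 17.2, 26.4 and 41.1 RPKM in GSK343_DMSO cells, against 40.5, 98.2 and 46.4 RPKM in DMSO_DMSO cells. In the replating arm the Adamts1 groups GSK343_DMSO and DMSO_DMSO overlapped, and the Kcnk5 groups did not. These differences were not tested.

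On day 4, the 5 genes that rose most on day 8 stood higher in both GSK343 libraries without passing the test over all genes. Syk had 9.19 and 9.25 RPKM with GSK343 and 6.02 and 6.38 RPKM with DMSO (limma log2 0.51, SE 0.16, adjusted p = 0.226). Calca had 35.2 and 37.5 RPKM with GSK343 and 24.3 and 24.6 RPKM with DMSO (limma log2 0.55, SE 0.20, adjusted p = 0.332). Kcnk5 had 15.8 and 16.5 RPKM with GSK343 and 8.20 and 7.29 RPKM with DMSO (limma log2 0.97, SE 0.21, adjusted p = 0.0812). Smpdl3b had 6.79 and 8.91 RPKM with GSK343 and 6.24 and 6.14 RPKM with DMSO (limma adjusted p = 0.740), and Slc15a1 had 1.62 and 2.52 RPKM with GSK343 and 0.526 and 0.831 RPKM with DMSO (limma adjusted p = 0.431). ES markers already differed: they summed to 920.5 and 1067 RPKM with GSK343 and 733 and 820.2 RPKM with DMSO, and 2 of 5 rose, Esrrb (limma log2 2.13, adjusted p = 0.00949) and Zfp42 (limma log2 1.88, adjusted p = 0.0177). Their part was not tested. These values were picked for these sentences after their values were seen.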
